A study of Mus musculus with 18 samples.

Results

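The genes examined here encode 10 enzymes of xenobiotic metabolism: the cytochromes P450 Cyp3a11, Cyp3a25 and Cyp3a13, the glutathione transferases Gsta1, Gm3776, Gsta4, Gstm1, Gstm3 and Gstt1, and the carboxylesterase Ces2e. They are 10 of the 32286 features counted in single-cell RNA-seq of the mouse ileal epithelium. They were chosen by their measured levels across cell types and by their change between Setdb1-KO and WT cells, so their levels and fold changes are given as description and carry no p-value. Where one of them is said to be called, over all cells or within a class, that is description too. Setdb1 is a histone H3 lysine 9 methyltransferase that silences retrotransposons and genes. It was inactivated in the Lgr5+ intestinal stem cells that renew the epithelium, and GFP+ cells were sorted from a crypt-enriched preparation of the ileum. In the first experiment, called Lgr5+, GFP came from the Lgr5 knock-in itself, with Lgr5-GFP-CreERT2 mice as WT and Lgr5-GFP-CreERT2/Setdb1lox/lox mice as Setdb1-KO. In the second, called lineage-traced, the same alleles were combined with the nTnG reporter (Lgr5-GFP-CreERT2/nTnG and Lgr5-GFP-CreERT2/Setdb1lox/lox/nTnG), and GFP then also stays on in the progeny of recombined stem cells. Each of the 4 groups had 2 libraries. All mice, the WT ones included, were C57Bl6, 60 to 65 days old, carried Cre and received 1 intraperitoneal injection of tamoxifen at 70 mg/kg, with tissue taken on day 5. The knock-in allele is silenced at random in part of the crypts, so the sorted cells come from a mosaic of crypts, and no library without tamoxifen was among those analysed.

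Foreign compounds are handled in steps. Phase I enzymes such as the CYP3A monooxygenases oxidise them, carboxylesterases split ester and amide bonds, and phase II enzymes such as the glutathione transferases couple the products to glutathione for export. In the intestine these enzymes are made mainly by absorptive enterocytes, which meet dietary compounds first, and their genes are known targets of ligand-activated receptors such as PXR (Nr1i2) and CAR (Nr1i3) and of the stress-responsive factor Nrf2 (Nfe2l2). Tamoxifen itself is a known CYP3A substrate.

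In mm10 coordinates 7 of the 10 genes lie in clusters with another member. Gsta4 (chr9:78182774-78209349, + strand), Gsta1 (chr9:78230656-78242684, +) and Gm3776 (chr9:78257129-78269166, +) follow each other on chromosome 9, with 14444 bases between Gsta1 and Gm3776. Gstm3 (chr3:107963696-107969283, - strand) and Gstm1 (chr3:108012255-108017973, -) stand 42971 bases apart. Cyp3a11 (chr5:145854426-145879964, -) and Cyp3a25 (chr5:145977194-146009618, -) are 97229 bases apart, and Cyp3a13 (chr5:137892932-137921619, -) lies outside that cluster. Gstt1 (chr10:75783813-75798584, -) and Ces2e (chr8:104926260-104934672, +) have no member near them. Gsta1 and Gm3776 are near-identical copies. Their transcripts differ at 4 of 874 aligned bases, and 1 of these lies in the last 400 bases, 188 bases from the 3′ end that the reads cover, so the counts of the pair are uncertain wherever reads could be split between them. The stretch of 237 bases upstream of each copy is shown because the pair differed in its response to genotype. In RefSeq sequence of GRCm38.p6 the stretches, chr9:78230419-78230655 (+) for Gsta1 and chr9:78256892-78257128 (+) for Gm3776, differ by the substitution G53A, counted from 1 at the first base printed with the base of Gsta1 first, and the differing base is in capitals:
Gsta1: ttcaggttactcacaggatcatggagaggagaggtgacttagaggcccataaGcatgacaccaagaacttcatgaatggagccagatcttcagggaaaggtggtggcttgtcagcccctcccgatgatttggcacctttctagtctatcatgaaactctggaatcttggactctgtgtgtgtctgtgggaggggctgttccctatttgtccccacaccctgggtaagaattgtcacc
Gm3776: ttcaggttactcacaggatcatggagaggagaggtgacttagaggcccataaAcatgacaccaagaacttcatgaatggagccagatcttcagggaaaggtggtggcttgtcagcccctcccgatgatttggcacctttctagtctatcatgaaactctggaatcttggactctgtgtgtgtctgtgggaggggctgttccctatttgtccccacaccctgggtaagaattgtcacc

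Cyp3a11 had the most extreme level difference of the 10 genes. The 140 bases upstream of its start, chr5:145879965-145880104 (- strand, RefSeq, GRCm38.p6), are shown. The letters TGAACT, the reverse complement of AGTTCA, a form of the nuclear receptor half-site, are in capitals:
Cyp3a11: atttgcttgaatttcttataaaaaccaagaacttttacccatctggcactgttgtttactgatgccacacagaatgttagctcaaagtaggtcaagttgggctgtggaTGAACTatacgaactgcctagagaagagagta
5 short motifs were searched on both strands in the 250 bases upstream of 9 members, all but Gsta4, which had no entry in the table. AGTTCA was found in Cyp3a11 only among the 9, at 142 bases before the start the RefSeq table gives, which lies inside the gene as annotated above, and in 11.9% of the 27025 promoters searched. The half-site form AGGTCA was not among the 5 motifs. It stands unmarked in the Cyp3a11 stretch printed above and also occurs upstream of Cyp3a25. A half-site is therefore not said to be particular to Cyp3a11. The HNF4 motif CAAAGTCCA was found in Cyp3a11 only among the 9, at 109 bases before that start, and in 0.381% of promoters. No match was found in the 9 for the antioxidant response element core TGACNNNGC (10.1% of promoters), the GATA motif AGATAA (10.3%) or a 10-letter HNF1 motif (0.411%). A match describes letters in this window and not binding.

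Levels are unique molecular identifiers (UMIs) of a gene per 1000000 UMIs of the same cells (CPM). Each transcript is counted once at its 3′ end, so CPM values of different genes can be compared without a length correction. Cells were barcodes with 1000 (Lgr5+) or 500 (lineage-traced) to 18000 UMIs and under 5% mitochondrial UMIs, between 2894 and 11423 per library out of 16881518 to 81876035 UMIs. The lineage-traced libraries were shallower, with median UMIs per cell of 961 to 2085 against 4686 to 9336. A cell was placed in the class whose marker genes took the highest scaled share of its UMIs, and none of the 10 genes was a marker. Enterocyte-like cells made up 5.62% and 7.01% of cells in Lgr5+ WT, 12.5% and 8.63% in Lgr5+ Setdb1-KO, 14.1% and 7.65% in lineage-traced WT, and 1.35% and 2.17% in lineage-traced Setdb1-KO, the last being 65 and 222 cells. Between 2.06% and 6.58% of cells lay near the class limit, and at most 34 barcodes were shared by any pair of libraries. The 3′ counts of Setdb1 lie outside the deleted exon and do not check the genotype. They were 11.3 and 9.93 CPM in Lgr5+ WT, 5.32 and 6.21 in Lgr5+ Setdb1-KO, 6.11 and 4.21 in lineage-traced WT, and 10.4 and 7.85 in lineage-traced Setdb1-KO. A label names liver as the source, and 12 hepatocyte markers together reached only 6.58 to 38.3 CPM, with no UMI of Alb, Ahsg, Fga, Fgb or Fgg in enterocyte-like cells.

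In WT tissue, 9 of the 10 genes had their highest level in enterocyte-like cells in both experiments, and Gstt1 had its highest in enteroendocrine-like cells. Gsta1, Gstm3 and, in the lineage-traced libraries, Cyp3a11 were among the leading genes of the enterocyte-like class. The levels differed between the experiments. Cyp3a11, the main drug-oxidising CYP3A enzyme of mouse, stood at 16.0 and 8.63 CPM in the enterocyte-like cells of the Lgr5+ WT libraries and at 1549 and 1052 CPM in those of the lineage-traced WT libraries. Gsta1, an alpha-class transferase, stood at 732 and 673 against 5516 and 3839 CPM. Gstm3, a mu-class transferase, stood at 322 and 303 against 4045 and 3969 CPM. This was not particular to these 3 genes. In enterocyte-like cells each of the 10 but Gsta4 was higher in both lineage-traced WT libraries than in either Lgr5+ WT library. The share of all genes lying so was not counted, so nothing is read from this. Ces2e, which hydrolyses esters, differed less, with 403 and 419 against 774 and 735 CPM, and Gsta4, known for conjugating the lipid peroxidation product hydroxynonenal, was lower in the lineage-traced WT libraries (333 and 334 against 255 and 232 CPM). The experiments differed in sort and depth, which cannot be told apart from the reporter.

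The enterocyte-like cells were also compared in 11 landmarks of position along the villus. These run from base to top, so their sum does not give a position. Their summed level was 6404 and 6159 CPM in Lgr5+ WT, 2738 and 2842 in Lgr5+ Setdb1-KO, 11559 and 16436 in lineage-traced WT, and 2517 and 2686 in lineage-traced Setdb1-KO. In the Lgr5+ experiment both Setdb1-KO libraries lay above both WT libraries for 3 landmarks (Ada, Apoa4 and Slc2a2) and below them for 3 (Reg3b, Reg3g and Slc7a9), and 5 overlapped. Of all genes tested in these cells 23.1% lay above and 19.9% below, so nothing is read from these counts. In the lineage-traced experiment both Setdb1-KO libraries lay below both WT libraries for 10, and Gsdmc4 overlapped. There 32.5% of all genes tested lay below. The upper-villus landmark Apoa4 stood at 110.3 and 109 CPM in Lgr5+ WT, 187 and 183 in Lgr5+ Setdb1-KO, 2262 and 1612 in lineage-traced WT, and 78.9 and 157 in lineage-traced Setdb1-KO. The ileal bile acid binding protein Fabp6, which is not among the landmarks, stood at 284 and 27.2, 1154 and 628, 3972 and 4488, and 50.2 and 102 CPM in the same order. The villus-base landmark Reg3b ran from 1164 to 6239 CPM over the 8 libraries and was lower in both Setdb1-KO libraries of each experiment. In the lineage-traced experiment Apoa4 and Fabp6 were lower in Setdb1-KO, as the CYP3A genes were, and in the Lgr5+ experiment both were higher in Setdb1-KO while Cyp3a11 and Cyp3a25 overlapped between genotypes. The part of these differences in the results was not tested. Fewer mature cells in a class and less RNA per cell cannot be told apart in sums over cells.

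**Figure D1:**
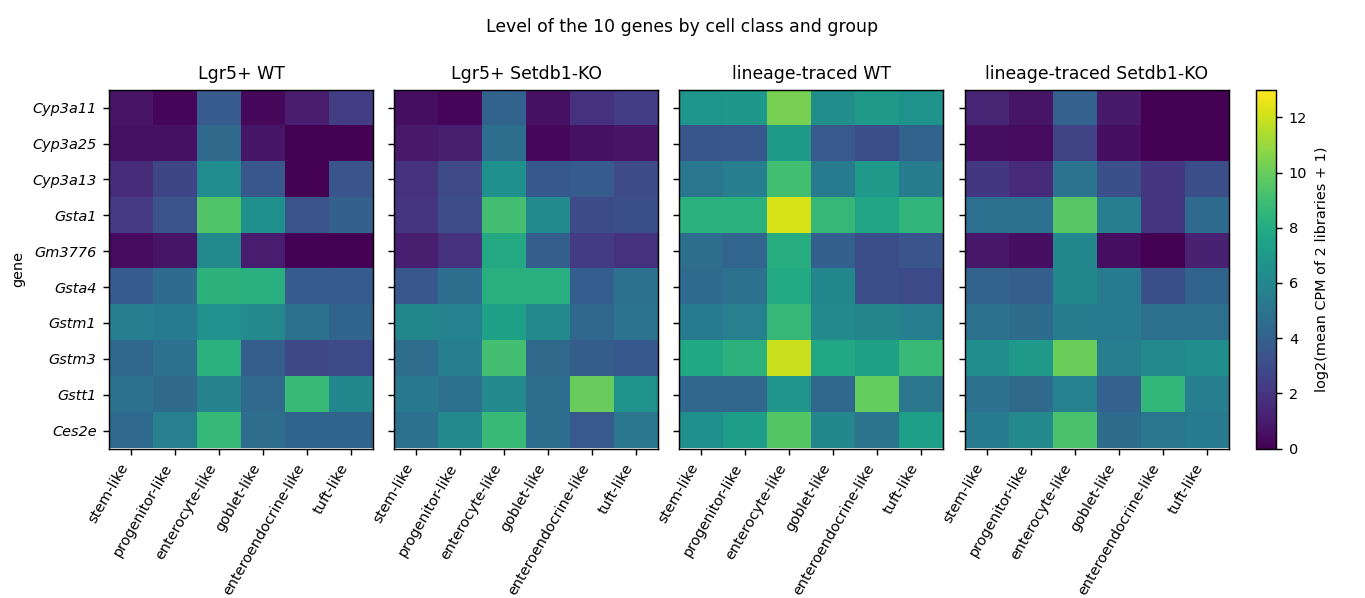
Heat map of log2(mean CPM of 2 libraries + 1) for the 10 genes (rows) in each cell class (columns), with 1 panel for each of the 4 groups. The enterocyte-like column is the brightest for 9 genes in both WT panels, Gstt1 is brightest in enteroendocrine-like cells, and the CYP3A rows are brightest in the lineage-traced WT panel.

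Gsta4 was shared between the absorptive and a secretory class. In goblet-like cells, which make mucus, it stood at 349 and 218 CPM in Lgr5+ WT, against 333 and 334 CPM in enterocyte-like cells, a difference within the spread of the goblet-like values. Goblet-like cells gave 50.7% and 33.9% of all Gsta4 UMIs in Lgr5+ WT and 37.6% and 41.1% in Lgr5+ Setdb1-KO. In the lineage-traced WT libraries the goblet-like level was 58.5 and 64.0 CPM and lay below the enterocyte-like level. Gstm1, another mu-class transferase, was spread widely. Its enterocyte-like cells gave only 12.7% and 13.2% of its UMIs in Lgr5+ WT, and its level there, 104 and 81.5 CPM, was next followed by goblet-like cells with 69.4 ± 1.76 CPM (SD, n = 2).

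Gstt1, a theta-class transferase, had a pattern of its own. Its level in enteroendocrine-like cells, the hormone-producing cells of the epithelium, was 314 and 568 CPM in Lgr5+ WT and 891 and 1035 CPM in lineage-traced WT, above every other class, with tuft-like cells next in Lgr5+ WT at 67.0 ± 2.50 CPM and enterocyte-like cells next in lineage-traced WT at 108 ± 1.61 CPM (SD, n = 2). The UMIs behind these levels numbered 97 and 263 for Lgr5+ WT, and 58 and 23 for lineage-traced WT. Within that class the level followed the hormone genes. In cells with at least as many UMIs of enterochromaffin genes (Tph1, Tac1, Chga, Chgb) as of peptide hormone genes (Ghrl, Gcg, Cck, Sct, Pyy) it was 596, 1124, 1493 and 1817 CPM in the Lgr5+ WT and Setdb1-KO libraries. In cells with more peptide hormone UMIs it was 55.8, 42.0, 78.5 and 65.3 CPM in the same libraries. The cells with at least as many enterochromaffin UMIs were thus above the others in each of the 4 libraries. The split was made after the class levels had been seen. It rests on these genes alone, with equal counts placed on the enterochromaffin side, and does not name a cell type.

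The enteroendocrine-like level of Gstt1 was compared by genotype as well. In Setdb1-KO it was 861 and 1139.8 CPM in the Lgr5+ experiment, above both WT libraries, with a log2 fold change of 1.19 ± 0.292 (SE) that was not called, where 0.110% of genes were called in either direction. In the lineage-traced experiment it was 283 and 502 CPM, from 13 and 158 UMIs, below both WT libraries, with a log2 fold change of -1.49 ± 0.416 (SE) that was called, where 3.84% of the 729 genes tested were called in either direction. The mix of cells moved with it. Cells with at least as many enterochromaffin as peptide hormone UMIs made up 36 of 50 and 19 of 21 cells in lineage-traced WT. In Setdb1-KO they were 16 of 40 and 81 of 135. Within them Gstt1 was 1341 and 1090.3 CPM in WT against 587 and 879 CPM in Setdb1-KO. Paneth marker genes took a median of 9.27% and 15.2% of the UMIs of these enteroendocrine-like cells in WT and 1.65% and 3.02% in Setdb1-KO. The part of either shift in the result was not tested. In the lineage-traced fit the scaling of libraries moved the median log2 ratio of all genes from 0.30 in unscaled CPM to -0.03.

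**Figure D2:**
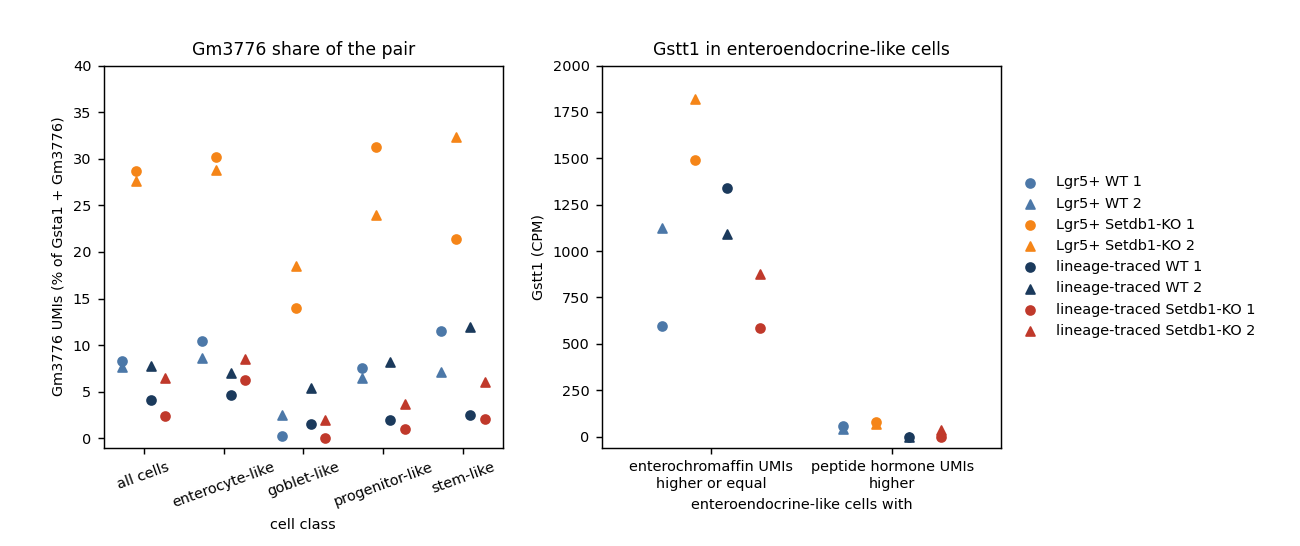
Left, Gm3776 UMIs as a percent of Gsta1 and Gm3776 UMIs together, by cell class, and right, Gstt1 level (CPM) in enteroendocrine-like cells split by hormone genes, with 1 point per library and 2 libraries per group. In the left panel the Lgr5+ Setdb1-KO libraries stand above all others (27.6% and 28.7% over all cells). In the right panel the cells with enterochromaffin UMIs higher or equal stand above the others, whose lineage-traced WT points rest on 14 and 2 cells.

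Other genes followed the same classes. Over 36 sums of 1 class in 1 WT library, and among 10520 genes, the Pearson r of log2(CPM + 10) with Cyp3a11 was highest for Apoa4 (0.94), Ly6m (0.93) and Gda (0.91). For Cyp3a25 the nearest were Ggt1 (0.95), Cyp2c66 (0.94) and Apoa4 (0.93), and for Cyp3a13 they included Xdh (0.94) and Alpi (0.93). Gsta1 was nearest to Gstm3 (0.93), Apoa1 (0.93) and S100g (0.91), and the nearest to Gstm3 included S100g (0.95) and Gsta1 (0.93). Gm3776 was nearest to Apoc3 (0.87), Slc2a2 (0.87) and Ggt1 (0.86), and Ces2e to Mttp (0.93), Maf (0.92) and Smlr1 (0.90). The 3 less enterocytic genes had other neighbours. Gsta4 was nearest to Anxa13 (0.82), Fmo5 (0.81) and Ifi27l2b (0.79), Gstm1 to Fabp2 (0.85), 2010003K11Rik (0.82) and Nat8f5 (0.82), and Gstt1 to Bmp1, Scarb1 and Pgap1 (0.89 each). Between members, r with Cyp3a11 was 0.89 for Gstm3, 0.87 for Cyp3a13, 0.06 for Gsta4 and 0.12 for Gstt1. The sums of a library share its depth and free RNA, so these values describe the profiles.

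In the Lgr5+ experiment the question was how loss of Setdb1 alters cells of the stem cell sort. By the study's account the mature differentiated cells of this sort came through incomplete enrichment, whereas immature enterocytes and some goblet and enteroendocrine cells carried GFP mRNA. The enterocyte-like, goblet-like and enteroendocrine-like classes can therefore mix cells with and without the reporter, and which of them carried it or the deletion was not determined here. Over all cells, each of the 10 genes was higher in both Setdb1-KO libraries than in either WT library, an arrangement that 18.6% of all genes tested showed. In the edgeR quasi-likelihood fit 3 of the 10 were called higher (Gm3776, Gstm3 and Gstt1), where 0.812% of genes were called higher and 1.34% in either direction. Since the genes were selected on this contrast, nothing is read from these counts. The same holds for every count of the 10 genes called within a cell class, in both experiments. The median log2 fold change of the 10 was 0.75, against -0.01 over all genes tested. Gm3776 stood apart from its copy: it was 5.95 and 5.45 CPM in WT and 35.1 and 25.5 CPM in Setdb1-KO (log2 fold change 2.41 ± 0.133, SE), whereas Gsta1 was 65.9 and 65.3 against 87.0 and 67.1 CPM, 0.23 ± 0.101. Gstm3 was 40.5 and 44.8 against 98.3 and 89.5 CPM (1.14 ± 0.101), and Gstt1 was 28.7 and 32.2 against 62.0 and 49.9 CPM (0.88 ± 0.119). Cyp3a11 was scarce, with 46 and 48 UMIs in WT and 60 and 139 in Setdb1-KO.

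The larger share of enterocyte-like cells in the Setdb1-KO libraries moved with the values over all cells. Within enterocyte-like cells, 3 of the 10 were called higher (Gm3776, Gstm1 and Gstm3), where 0.524% of genes were called higher and 0.736% in either direction, and the median log2 fold change of the 10 was 0.27 against 0 over all genes. Gm3776 was 85.1 and 63.6 CPM in WT and 219.8 and 234 CPM in Setdb1-KO (log2 fold change 1.61 ± 0.124, SE). Gsta1 was 732 and 673 against 508 and 580.2 CPM (-0.39 ± 0.103), with both Setdb1-KO libraries below both WT libraries. The members of the near-identical pair therefore lay on opposite sides of their WT values, and reads shared between them could alter either count. Gm3776 took 10.4% and 8.63% of the UMIs of the pair in WT and 30.2% and 28.8% in Setdb1-KO. In goblet-like cells Gm3776 had 1 and 8 UMIs in WT beside 487 and 309 of Gsta1, and 41 and 120 UMIs in Setdb1-KO beside 251 and 527 of Gsta1.

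Both mu-class genes were higher in the enterocyte-like cells of Lgr5+ Setdb1-KO. Gstm1 was 104 and 81.5 CPM in WT and 148 and 201 CPM in Setdb1-KO (log2 fold change 0.91 ± 0.159, SE), and Gstm3 was 322 and 303 against 505 and 615 CPM (0.83 ± 0.116). The 3 CYP3A genes differed less there. Cyp3a11 was 16.0 and 8.63 against 12.3 and 21.1 CPM and overlapped between genotypes, Cyp3a25 was 22.7 and 19.8 against 20.3 and 30.6 CPM and also overlapped, and Cyp3a13 was 81.7 and 78.9 against 100.4 and 82.2 CPM. Gsta4 (333 and 334 against 277 and 319 CPM), Gstt1 (60.7 and 50.8 against 73.9 and 61.8 CPM) and Ces2e (403 and 419 against 479 and 414 CPM) were within 0.27 of no change on the log2 scale.

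The dividing compartment of the crypt was compared next. In Lgr5+ stem-like cells 0 of the 7 members that passed the filter on low counts were called, where 0.922% of genes were called. DESeq2 called 0 as well, where it called 0.767% of genes, and edgeR without the first Setdb1-KO library called 3 of the 10, 2 of them among the 7, where 2.25% of all genes were called. Gstm1, at 51.8 and 43.7 CPM in WT and 58.6 and 64.6 CPM in Setdb1-KO, was the highest of the 10 there, and Cyp3a11 stood at 0.835 CPM or less in each of these 4 libraries. The progenitor-like class is defined by genes of cell division and can hold dividing stem cells. Stem markers took a median of 0.197% and 0.192% of its UMIs in Lgr5+ WT. In progenitor-like cells 2 of 9 were called higher, where 0.379% of genes were called higher and 0.691% in either direction. They were Gm3776, with a log2 fold change of 2.05 ± 0.313, and Gstm3, with 0.76 ± 0.113 (SE). Without the first WT library, where 0.405% of genes were called, or without the second Setdb1-KO library, where 0.972% were, none of the 10 was called in that class.

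In the lineage-traced experiment the question was what the progeny of the Setdb1-KO stem cells express, and the genes went the other way. Over all cells Cyp3a11 was 225 and 198 CPM in WT, from 4297 and 1603 UMIs, and 1.78 and 1.20 CPM in Setdb1-KO, from 16 and 32 UMIs, a log2 fold change of -7.73 ± 0.368 (SE). Cyp3a25 was 22.2 and 21.8 against 0.556 and 0.411 CPM (-6.05 ± 0.301), and Cyp3a13 was 89.1 and 70.5 against 5.34 and 3.48 CPM (-4.75 ± 0.289). Gsta1 was 747 and 619 against 50.6 and 46.2 CPM (-4.35 ± 0.338), and Gm3776 was 32.5 and 52.2 against 1.22 and 3.22 CPM (-4.58 ± 0.421). Gstm3 was 559 and 555 against 104 and 137 CPM (-2.72 ± 0.34). For these 6 genes the WT libraries lay several-fold above the Setdb1-KO libraries without overlap. Gstm1 (77.7 and 64.8 against 31.0 and 24.3 CPM), Gsta4 (41.4 and 51.6 against 17.0 and 24.9 CPM) and Ces2e (144 and 143 against 59.9 and 65.9 CPM) differed less, with log2 fold changes between -1.64 and -1.91. Gstt1 overlapped between genotypes (25.5 and 27.1 against 24.3 and 30.3 CPM).

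All but Gstt1 were called lower, 9 of 10, where 7.19% of genes were called lower and 8.73% in either direction, and all but Gstt1 lay below WT in both Setdb1-KO libraries, as 8.21% of all genes tested did. Nothing is read from these counts, which the choice of genes used. The median log2 fold change of the 10 was -3.53, against 0.01 over all genes. That scaling moved the median of all genes from 0.47 in unscaled CPM ratios, and the 9 genes were lower on both scales. Paneth-like barcodes made up 29.7% and 63.6% of the WT libraries and 7.83% and 9.94% of the Setdb1-KO libraries. In barcodes of 10 to 100 UMIs, taken as free RNA, Paneth markers made up 33.7% and 35.4% of UMIs in WT and 15.0% and 22.8% in Setdb1-KO. In the Paneth-like barcodes these markers took a median of 34.9% and 34.3% of UMIs in WT and 41.5% and 15.7% in Setdb1-KO. By this share the WT Paneth-like barcodes could not be told apart from droplets of free RNA. Those of the first Setdb1-KO library lay above its free RNA and those of the second below. Without Paneth-like barcodes 9 of the 10 genes were called lower, where 6.90% of all genes in that fit were, and nothing is read from this count either.

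The lower share of enterocyte-like cells in lineage-traced Setdb1-KO moved with these values as well. Within enterocyte-like cells 8 of the 10 genes were called lower, where 15.5% of genes were called lower and 25.8% in either direction, and all 10 had both Setdb1-KO libraries below both WT libraries, as 32.5% of genes did. The median log2 fold change of the 10 was -2.18, against -0.04 over all genes. Cyp3a11 was 1549 and 1052 CPM in WT and 14.3 and 17.7 CPM in Setdb1-KO, the last from 2 and 15 UMIs, a log2 fold change of -6.07 ± 0.521 (SE). Cyp3a25 was 151 and 124 against 7.17 and 3.55 CPM, the last from 1 and 3 UMIs (-4.84 ± 0.565). Cyp3a13 was 632 and 441 against 28.7 and 31.9 CPM (-3.94 ± 0.448). These CYP3A levels in Setdb1-KO were of the same order as in Lgr5+ enterocyte-like cells for Cyp3a11 and lower for the other CYP3A genes.

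The glutathione transferases other than Gstm1 kept more of their level than the CYP3A genes. Gsta1 was 5516 and 3839 CPM in WT and 746 and 807 CPM in Setdb1-KO (log2 fold change -2.50 ± 0.418, SE), and Gstm3 was 4045 and 3969 against 961 and 1224 CPM (-1.77 ± 0.405). Gm3776 was 267 and 289 against 50.2 and 75.6 CPM (-1.87 ± 0.384), and its share of the pair ran from 4.62% to 8.57% over the 4 libraries and overlapped between genotypes. Gsta4 was 255 and 232 against 64.5 and 69.7 CPM (-1.69 ± 0.38), and Gstm1 was 473 and 331 against 64.5 and 26.0 CPM (-3.38 ± 0.44). Gstt1 (109 and 107 against 50.2 and 54.4 CPM, -0.86 ± 0.362) and Ces2e (774 and 735 against 638 and 595 CPM, -0.22 ± 0.367) were the 2 genes not called. Ces2e thus stayed near its WT level in the enterocyte-like cells that were present, while Cyp3a11 differed most.

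**Figure D3:**
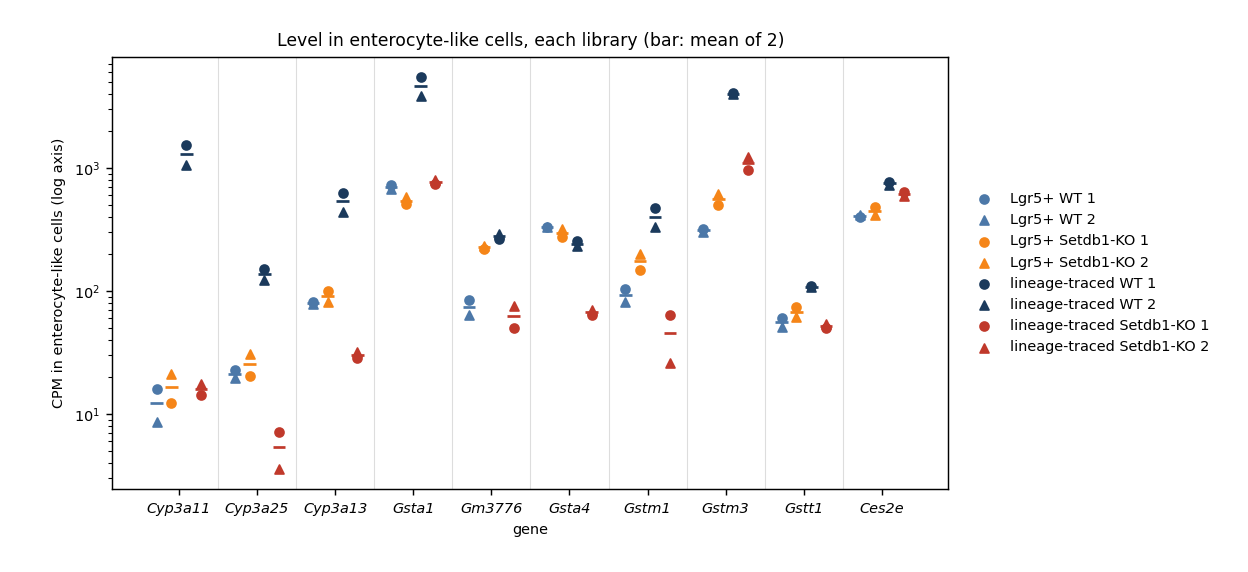
Level (CPM, log axis) of the 10 genes in enterocyte-like cells, with 1 point per library and a bar at the mean of the 2 libraries of each group. The lineage-traced WT points stand above the rest for every gene but Gsta4, and for Ces2e the 8 libraries lie between 403 and 774 CPM.

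Enterocyte-like cells were then compared at a like share of enterocyte marker UMIs, in ranges of the marker score. This score ran from 0.1, the class limit, and about 1 marks the cells with the most marker UMIs. In the range from 0.2 to 0.4 Cyp3a11 was 847 and 613 CPM in the lineage-traced WT libraries and 3.49 CPM in the second Setdb1-KO library, and in the range from 0.4 to 0.8 it was 2842 and 1939 CPM against 3.94 CPM. The first Setdb1-KO library had under 20 cells in each of these ranges. Gsta1 was 2564 and 1854 against 499 CPM in the lower and 6274 and 3928 against 1155 CPM in the higher of these ranges. Gstm3 was 2513 and 1839 against 1057 CPM and 3801 and 3485 against 1896 CPM. In these ranges the single Setdb1-KO library thus lay below both WT libraries for the 3 genes. Its Cyp3a11 values there rest on few UMIs. They lie below the mean over all enterocyte-like cells of the Setdb1-KO libraries, 16.0 ± 2.39 CPM (SD, n = 2). Most Cyp3a11 UMIs of that library thus lay in ranges not given here, and the size of the Cyp3a11 difference is not read. The first Lgr5+ WT library also had under 20 cells in each range above 0.4, so the following values set 1 WT library beside 2 of Setdb1-KO. Gm3776 was 108 CPM in the second WT library and 243 and 486 CPM in the Setdb1-KO libraries in the range from 0.4 to 0.8, and 225 against 922 and 1366 CPM above 0.8.

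**Figure D4:**
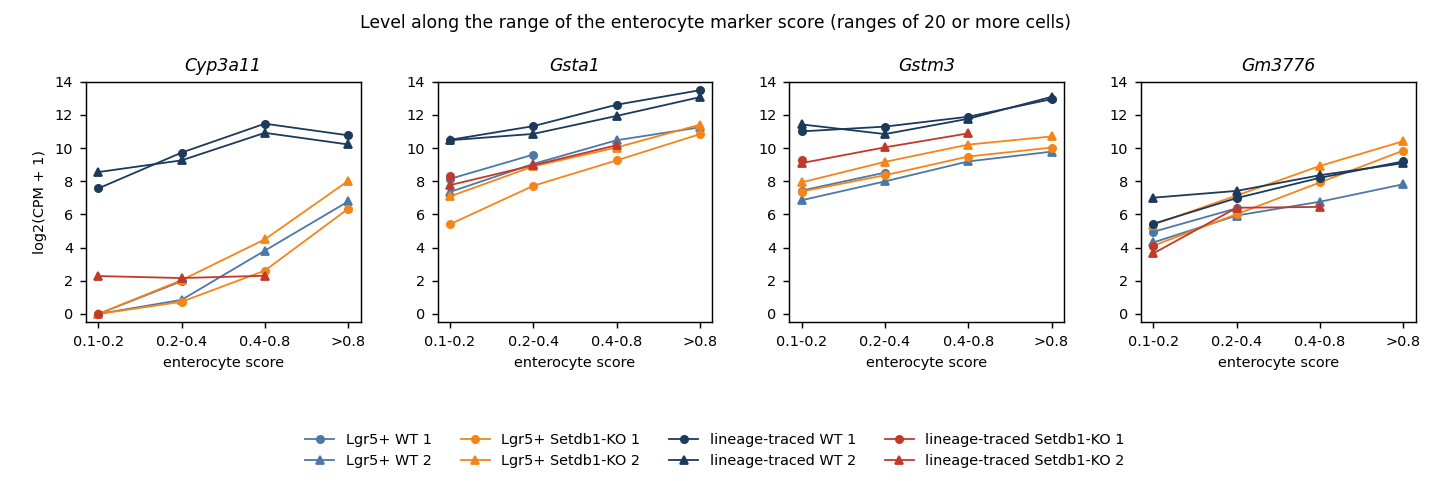
Level as log2(CPM + 1) of Cyp3a11, Gsta1, Gm3776 and Gstm3 (1 panel each) against ranges of the enterocyte marker score, with 1 line per library and ranges of under 20 cells left out. Levels of Gsta1, Gstm3 and Gm3776 are higher in the highest range drawn than in the lowest in every library with several ranges, and the Cyp3a11 lines of lineage-traced WT lie far above the others.

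Low levels in other classes of the lineage-traced libraries were read beside free RNA. Free RNA held 253 and 182 CPM of Cyp3a11 in WT and 71.1 and 14.8 CPM in Setdb1-KO. In stem-like cells Cyp3a11 was 119.9 and 104 CPM in WT and 2.03 and 0.982 CPM in Setdb1-KO. If Paneth markers in stem-like cells came from free RNA alone, free RNA would make up 47.9% and 44.8% of the WT stem-like level but 3.51% and 4.10% of the WT enterocyte-like level. After that subtraction stem-like Cyp3a11 was 62.4 and 57.3 CPM in WT and -11.0 and -0.780 CPM in Setdb1-KO, and enterocyte-like Cyp3a11 was 1495 and 1009 CPM against 9.91 and 16.7 CPM. Below 0, more free RNA was taken off than was counted, so the estimate was too high for Cyp3a11 there. Subtracted values outside enterocyte-like cells are therefore description only, and no genotype difference is read from them. Stem-like Gsta1 was 276 and 212 CPM against -1.98 and 1.55 CPM after subtraction, and Gstm3 was 131 and 72.8 against 32.9 and 50.5 CPM. Gstm1, at 30.3 and 21.1 against 26.3 and 20.0 CPM, overlapped between genotypes.

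Without subtraction, 7 of the 10 genes were called lower in lineage-traced stem-like cells, where 1.32% of genes were called lower and 1.73% in either direction, and 8 of 10 in progenitor-like cells, where 1.70% were called lower and 2.14% in either direction. Gsta4 and Gstt1 were not called in either class, and Gstm1 was not called in stem-like cells. Without the first WT library the counts were 4 in stem-like and 5 in progenitor-like cells, where 0.492% and 0.925% of genes were called in either direction, and without the second WT library 5 in progenitor-like cells, where 1.14% were. Stem-like log2 fold changes ranged from -6.28 ± 0.382 for Cyp3a11 to 0.51 ± 0.31 for Gstt1 (SE). In goblet-like cells Cyp3a11 was 94.2 and 77.8 CPM in WT, or 34.5 and 32.1 CPM after subtraction of free RNA, and was counted in 2 UMIs over both Setdb1-KO libraries, while Gsta4 was 58.5 and 64.0 against 38.4 and 37.4 CPM.

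**Figure D5:**
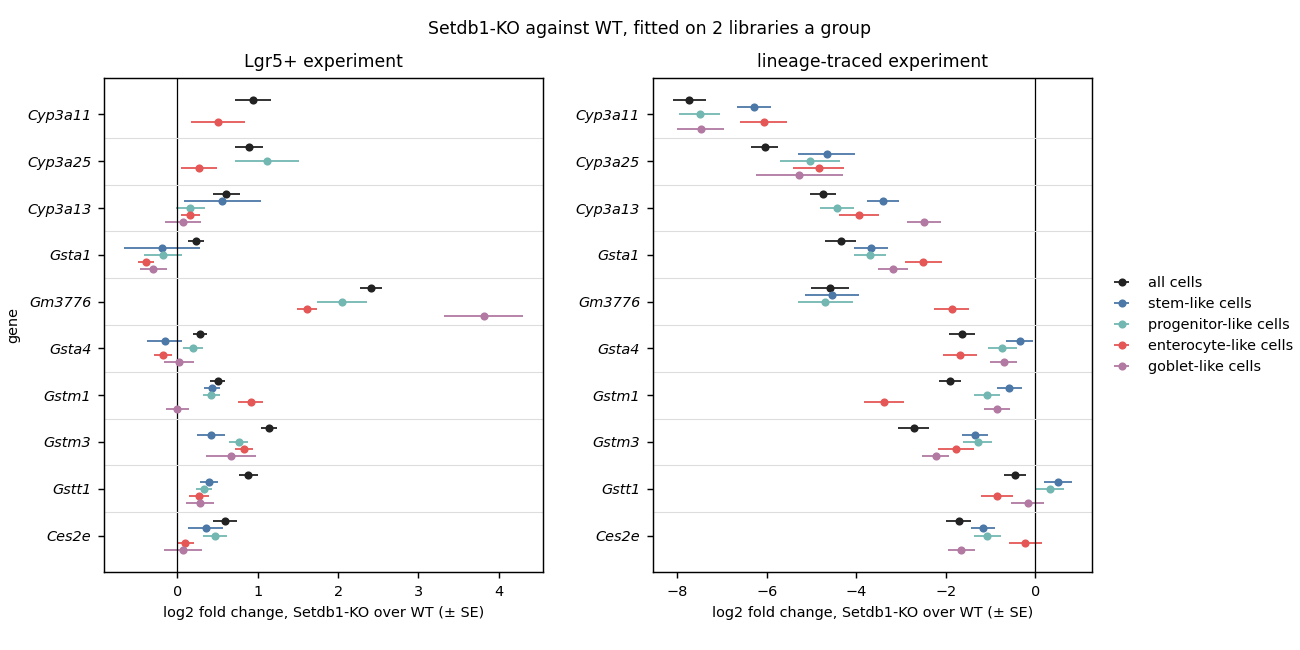
Log2 fold change of Setdb1-KO over WT (± SE, from the fit on 2 libraries a group) for the 10 genes, in all cells and by cell class, with 1 panel per experiment. In the lineage-traced panel the CYP3A genes lie between -3.40 and -7.73 in all, enterocyte-like and stem-like cells and Gstt1 lies nearest to 0 in all cells, while in the Lgr5+ panel Gm3776 lies farthest to the right.

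The effect of genotype differed between the experiments. In a fit of all 8 libraries, the log2 fold change in the lineage-traced less that in the Lgr5+ experiment ranged from -8.67 ± 0.300 for Cyp3a11 and -6.91 ± 0.468 for Gm3776 to -1.30 ± 0.275 for Gstt1 (SE) over all cells. The experiment, its depth and its sort cannot be told apart in this difference. A list of 138 further genes of xenobiotic metabolism was written with earlier results of these data known, so its calls give no independent support for the 10. Of the list, 121 were tested and 55 differed with an adjusted p under 0.05, where 7.58% of all genes were called. All 55 were lower in the lineage-traced relative to the Lgr5+ experiment. These were 15 of 21 cytochromes P450, 13 of 23 other phase I enzymes, 5 of 8 carboxylesterases, 5 of 18 glutathione transferases, 9 of 18 glucuronosyl, sulfo and other transferases, 2 of 10 genes of glutathione supply, 4 of 6 efflux transporters and 2 of 17 regulators.

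In the Lgr5+ experiment 17 of 119 further genes tested rose in Setdb1-KO over all cells and none fell, and the median log2 fold change of the list was 0.25. Among all genes 0.812% were called higher and 1.34% in either direction. Enterocyte-like cells were 5.62% and 7.01% of cells in WT and 12.5% and 8.63% in Setdb1-KO, and the part of this share in the result was not tested. The 17 held 4 of 18 cytochromes P450, 4 of 23 other phase I enzymes, 2 of 8 carboxylesterases, 4 of 19 glutathione transferases and 3 of 18 conjugating transferases, and no regulator. Those with the smallest adjusted p by edgeR's quasi-likelihood test were Cyp4f14, a fatty acid hydroxylase (33.9 ± 4.87 to 70.3 ± 14.5 CPM, log2 fold change 1.06, adjusted p = 0.0172), the aldo-keto reductase Akr1c13 (0.70, adjusted p = 0.0172), Cyp2u1 (1.24, adjusted p = 0.0185), the carboxylesterase Ces2a (0.83, adjusted p = 0.0209) and the alcohol dehydrogenase Adh1 (1.03, adjusted p = 0.0221). Each was higher in 2 of 2 Setdb1-KO libraries than in either WT library. Without the first WT library 1 gene was called, where 0.459% of all genes were, and without the filter on low counts none, where 0.172% were. In enterocyte-like cells 5 of 108 rose and none fell, where 0.524% of all genes were called higher and 0.736% in either direction. They were Ugt2b5 (0.66, adjusted p = 0.0187), Gsta3 (1.63, adjusted p = 0.039), Aldh1a1 (0.89, adjusted p = 0.0392), Adh1 (0.53, adjusted p = 0.0393) and Gstm6 (0.68, adjusted p = 0.04), and without the first Setdb1-KO library none was called, where 0.274% of all genes were. In stem-like cells 6 of 109 list genes rose and none fell, where 0.491% of all genes were called higher and 0.922% in either direction. In progenitor-like cells 4 of 111 rose and 1 fell, where 0.379% were called higher and 0.312% lower. Both counts moved when a library was left out.

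In the lineage-traced experiment 50 of 118 fell over all cells and 1 rose, and the median of the list was -0.68. Among all genes 7.19% were called lower, 1.54% higher and 8.73% in either direction. Enterocyte-like cells were 14.1% and 7.65% of cells in WT and 1.35% and 2.17% in Setdb1-KO, and the part of this share in the result was not tested. The 50 held 14 of 19 cytochromes P450, 11 of 23 other phase I enzymes, 5 of 8 carboxylesterases, 5 of 18 glutathione transferases and 4 of 6 efflux transporters. Ggt1, which splits extracellular glutathione, was 28.5 ± 1.86 CPM in WT and 0.278 ± 0.235 CPM in Setdb1-KO (log2 fold change -7.56, adjusted p = 1.86e-07, edgeR). The next were Cyp2c29 (-7.86, adjusted p = 2.31e-07), Cyp2b10 (-5.53, adjusted p = 2.71e-07), Cyp2c66 (-4.09, adjusted p = 8.3e-07) and Ces2b (-5.31, adjusted p = 1.62e-06), each lower in 2 of 2 Setdb1-KO libraries. The gene that rose was Hpgds, a prostaglandin D synthase of tuft and mast cells (1.94 ± 0.29 to 5.6 ± 0.537 CPM, 1.02, adjusted p = 0.0429). Tuft-like cells were 2.07% and 0.876% of cells in WT and 3.43% and 4.29% in Setdb1-KO, and the part of this share in the Hpgds result was not tested.

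In lineage-traced enterocyte-like cells 43 of 96 fell and 7 rose, and the median of the list was -0.95. Among all genes 15.5% were called lower, 10.3% higher and 25.8% in either direction. Nothing is read from the number that rose, which did not exceed that share. Without the first WT library 23 genes of the list were called in either direction and without the second 25, where 6.24% and 7.55% of all genes were. The cytochromes P450 fell in 12 of 14 cases, with Cyp2c55 (206 ± 43.5 to 4.77 ± 3.40 CPM, log2 fold change -5.82, adjusted p = 2.49e-19), Cyp2b10 (-4.76, adjusted p = 1.37e-13) and Cyp2c29 (-5.72, adjusted p = 1.44e-12) among the 5 with the smallest adjusted p by edgeR, beside Ggt1 (-5.77, adjusted p = 2.9e-19) and Ces2a (-3.24, adjusted p = 1.35e-12). The 4 efflux transporters tested all fell. Among the glutathione transferases 4 of 17 rose and 3 fell. Calls in this class depended on the processing. With a minimum of 2000 UMIs 1.14% of all genes were called higher and 8.05% lower, and by DESeq2 2.86% and 5.20%. Gstp1, the pi-class transferase, was 71.6 and 219 CPM in WT and 681 and 385 CPM in Setdb1-KO (1.92, adjusted p = 6.58e-06), and Gstm5 (1.52, adjusted p = 0.00197) and Gstt2 (1.13, adjusted p = 0.0188) rose as well. The glutathione peroxidase Gpx1 was 518 and 675 against 2129.8 and 2144 CPM (1.92, adjusted p = 2.41e-05), and the alcohol dehydrogenase Adh5 rose (1.26, adjusted p = 0.00234). Gstp1 also rose in stem-like (1.35, adjusted p = 0.0269) and progenitor-like cells (1.40, adjusted p = 0.00636), where 14 of 97 and 19 of 102 list genes fell and no other rose, while 1.32% and 1.70% of all genes were called lower in these classes. The list genes called in either direction were 5 in stem-like and 8 in progenitor-like cells without the first WT library, where 0.492% and 0.925% of all genes were called, and 30 in stem-like cells without the first Setdb1-KO library, where 9.36% were. In these classes Ggt1 (-6.50 and -6.93), Papss2, Cyp2c55 (-2.91 and -2.98), Ces2c (-2.21 and -2.26) and Ces2a were the leading genes that fell. Free RNA of these list genes was not subtracted, and its part in the stem-like and progenitor-like calls was not tested.

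Receptors and factors known to control these genes were read in the same fits. Nr1i3 (CAR) fell over all lineage-traced cells from 5.53 ± 0.824 to 2.36 ± 0.274 CPM (log2 fold change -1.77 ± 0.252, adjusted p = 0.000543, edgeR), and was 6.45 ± 0.228 against 10.2 ± 2.14 CPM in the Lgr5+ experiment (0.66, adjusted p = 0.0911). In lineage-traced enterocyte-like cells Nr1i3 overlapped, at 34.1 and 16.7 CPM in WT and 7.17 and 17.7 CPM in Setdb1-KO. In progenitor-like cells it was 3.44 ± 0.744 against 3.44 ± 1.02 CPM. The lower share of enterocyte-like cells in Setdb1-KO moved with the value over all cells, and its part was not tested. Nr1i2 (PXR) did not pass the test in either experiment, with log2 fold changes of -0.17 (adjusted p = 0.529) and -0.70 (adjusted p = 0.0763). In lineage-traced enterocyte-like cells Nr1i2 was 30.6 and 21.7 CPM in WT and 7.17 and 11.8 CPM in Setdb1-KO (-1.11, adjusted p = 0.0994). Nfe2l2 (Nrf2) was 0.15 (adjusted p = 0.411) in the Lgr5+ and -0.12 (adjusted p = 0.835) in the lineage-traced experiment, on the log2 scale over all cells. The aryl hydrocarbon receptor Ahr was -0.32 (adjusted p = 0.321) and 0.15 (adjusted p = 0.751). The enterocyte factors Hnf4a (0.03 and -0.23, adjusted p = 0.905 and 0.636) and Hnf4g (-0.15 and 0.19, adjusted p = 0.621 and 0.710) did not pass the test. Among the other regulators, Rxra fell over all lineage-traced cells (-0.85, adjusted p = 0.0396), and Vdr (-1.48, adjusted p = 0.00164) and Bach1 (-1.66, adjusted p = 0.00814) fell in lineage-traced enterocyte-like cells.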

How the data were processed

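Droplet 3′ single-cell RNA-seq libraries (8 in all) were analysed, 2 per group, as filed under the authors' sample labels. The authors deposited raw UMI counts per gene and barcode, made against mm10 with Cell Ranger 6.1.1 and handled further with Seurat 5.0.3 according to their methods and processing notes. The matrices held all barcodes, so filters for cells were set here: 1000 (Lgr5+) or 500 (lineage-traced) to 18000 UMIs and under 5% mitochondrial UMIs. The other 10 samples of the series were not analysed here.

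Each cell was scored for 8 lists of marker genes, as the share of its UMIs from a list over the mean share in the top 1% of cells with at least 2000 UMIs. The highest score gave the class if it reached 0.1, and names end in -like. A class of T cell markers in the lineage-traced libraries was led by genes of other cells and was left unnamed. Doublets were kept, and an alternative left out the highest Scrublet scores at 0.8% per 1000 cells, since automatic calls were near 0 in 7 of 8 libraries.

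UMIs were summed per library and class. Genotypes were compared within each experiment by edgeR's quasi-likelihood test (edgeR 4.0.16, R 4.3.3, filterByExpr, TMM), with Benjamini-Hochberg adjustment over all genes tested, and a gene was called at an adjusted p under 0.05. A fit over all 8 libraries tested the difference between experiments. Replicates are separate libraries of 2 biological samples per the methods, and counting precision is set by the UMIs given. In counts simulated for lineage-traced enterocyte-like cells (5056 genes) the test recovered 88.0% of 4-fold and 27.0% of 2-fold changes with 6 false calls, and for Lgr5+ enterocyte-like cells (8756 genes) 93.0% and 66.0% with 17. Alternatives were DESeq2 1.42.0, other scaling, filters, class margins, a replicate block and leaving out libraries.

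The genes and lists were chosen with earlier results of these data known. Named genes are the 10 members, Setdb1, 6 regulators, up to 5 list genes per direction with the smallest adjusted p per comparison, and the 3 genes most like each member, of which some are not reported here. Further regulators past the test were named after their values were seen. Sequences are from RefSeq tables of GRCm38.p6.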

Additional observations from a re-analysis of the deposited data

Results flagged for a closer look

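Over all cells, both Setdb1-KO libraries lay above both WT libraries in the Lgr5+ experiment and below them in the lineage-traced experiment for 9 of the 10 genes, all but Gstt1. Of all genes tested, 18.6% lay above in the Lgr5+ and 8.21% below in the lineage-traced experiment. The share of genes showing both was not counted, and nothing is read from the count of members. The log2 fold change in the lineage-traced less that in the Lgr5+ experiment, from the fit of all 8 libraries, was -8.67 for Cyp3a11, -6.95 for Cyp3a25, -5.37 for Cyp3a13, -4.57 for Gsta1, -6.91 for Gm3776, -1.89 for Gsta4, -2.39 for Gstm1, -3.84 for Gstm3, -2.28 for Ces2e and -1.30 for Gstt1. In that fit 7.58% of all genes differed at an adjusted p under 0.05, and no test is given for the 10. In enterocyte-like cells both Setdb1-KO libraries of the Lgr5+ experiment lay above and both of the lineage-traced experiment lay below their WT libraries for 5 genes, with differences of -4.10 for Cyp3a13, -3.48 for Gm3776, -4.29 for Gstm1, -2.60 for Gstm3 and -1.13 for Gstt1. The same held for Gstt1 in enteroendocrine-like cells, with a difference of -2.68. In enterocyte-like cells 23.1% of all genes tested lay above in the Lgr5+ and 32.5% below in the lineage-traced experiment. The share of genes showing both was not counted there either. The differences within classes were not tested. Genotype effects in both experiments were used in choosing the genes, and sort and depth cannot be told apart from the reporter in any of these values.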

How the results depend on the processing

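Alternatives were run over all cells and in enterocyte-like, stem-like and progenitor-like cells only. There no gene of the 10 that was called changed sign under any alternative. Calls in goblet-like, enteroendocrine-like and tuft-like cells, that of Gstt1 included, were not tried under any. Among genes not called, Cyp3a11 (-0.34 to 0.92) and Cyp3a25 (-0.10 to 0.53) in Lgr5+ enterocyte-like cells took both signs, and Ces2e in lineage-traced enterocyte-like cells ran from -0.49 to 0.00. Counts of list genes called over all lineage-traced cells (51, range 38 to 69) and in the difference between experiments (55, range 44 to 61) stayed within 1.5 times, and 8 or 9 genes had their highest level in enterocyte-like cells of both WT groups. The other counts of list genes moved, and the causes were not tested. Over all Lgr5+ cells (17) DESeq2 gave 37, no filter on low counts 0, and leaving out 1 library 1 to 28, with 1 and 5 without the first and second WT and 9 and 28 without the first and second Setdb1-KO library. In Lgr5+ enterocyte-like cells (5) no filter gave 22, removal of doublets 8 and leaving out 1 library 0 to 9. In Lgr5+ stem-like cells (6) no filter gave 18 and leaving out 1 library 1 to 13. In Lgr5+ progenitor-like cells (5) no filter gave 26 and leaving out 1 library 1 to 3. In lineage-traced enterocyte-like cells (50) DESeq2 gave 25, a minimum of 2000 UMIs 28 and leaving out 1 library 23 to 52. In lineage-traced stem-like cells (15) DESeq2 gave 7, a 2-fold class margin 8 and leaving out 1 library 5 to 30. In lineage-traced progenitor-like cells (20) DESeq2 gave 11, the margin 11 and leaving out 1 library 8 to 26.

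Same-numbered libraries share only a number, with 2 pairs per comparison and correlations of their deviations from -0.03 to 0.41. With a replicate block the list genes called were 2 over all Lgr5+ cells, 8 in enterocyte-like, 15 in stem-like and 12 in progenitor-like cells, and within 1.5 times of the main count in the lineage-traced experiment and in the difference between experiments. Over all genes the block moved the calls from 183 to 51 over all Lgr5+ cells and from 1066 to 2579 over all lineage-traced cells. The 65 enterocyte-like cells of the first lineage-traced Setdb1-KO library limit all values in that class.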
